A study of Rattus norvegicus with 47 samples.

Results

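Liver gene expression was compared between rats raised on a diet with 100 mg retinol per kg (vitamin A supplemented) and rats raised on the same purified diet without retinol (vitamin A deficient). The arrays were chosen by the group name in their titles. They comprise 2 supplemented and 5 deficient arrays, or 7 of the 47 arrays in the series. Each array measured liver RNA of 1 female Sprague-Dawley rat killed at 8 weeks of age. Diets were given from weaning, and the dams of all groups had been fed the retinol-free diet while nursing, the supplemented one included. The experiment had 2 more groups, marginal (0.4 mg retinol per kg, 7 arrays) and adequate (4 mg per kg, 6 arrays), which gave a common estimate of the spread and place each change along the range of diets. Hybridised arrays carried identifiers in 2 number ranges, called the first and the second run here. Both supplemented arrays and deficient replicates 4 and 5 lay in the first run, and deficient replicates 1, 2 and 3 in the second. The identifier of deficient replicate 5 lay apart from those of the other first-run arrays, which were close together.

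Vitamin A is taken up by the liver as retinol, esterified by lecithin retinol acyltransferase and stored mainly in stellate cells. Retinol is oxidised through retinaldehyde to retinoic acid, which binds retinoic acid receptors paired with retinoid X receptors on direct repeats of a short hexamer in the DNA. Hydroxylases of the cytochrome P450 family, above all Cyp26a1, then break retinoic acid down, so that storage and breakdown genes are among the known readouts of vitamin A status in liver.

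Values are log2 signals on a scale where 0 is the median probe set of the same array, so 1 unit is a doubling. Each array has a lowest value at which weak probe sets are listed. This floor lay between -5.71 and -3.32 over the diet arrays and was higher in the second run, where deficient replicate 3 had 2928 probe sets at the floor against 104 and 141 on the supplemented arrays. Hepatocyte transcripts marked every diet array as liver, with Alb, Apoa1 and Cps1 at or above the 99.5th percentile throughout. Deficient replicates 1, 2 and 5 and adequate replicate 5 are called the arrays that stood apart, a choice taken from earlier results of these data. Their median correlations with their own group, 0.797, 0.818, 0.758 and 0.803, did not separate them from deficient replicate 4, at 0.801. The 3' minus 5' probe difference of Gapdh, a measure of RNA integrity, was 0.922 on deficient replicate 5 and 1.37 on adequate replicate 5, against 0.105 to 0.541 on the other diet arrays. The same difference of beta-actin was 3.16 on adequate replicate 5. On deficient replicate 5 it was 1.32, inside the 1.23 to 2.10 of the other diet arrays, so the 2 probes differed for that array.

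A small set of genes with large changes was called between the supplemented and the deficient livers. Of 27595 probe sets tested, 116 (0.42%) passed an adjusted p of 0.05 in limma's moderated test with run as a covariate and Benjamini-Hochberg adjustment over all of them, 97 higher (0.352%) and 19 lower (0.0689%) in supplemented liver. Under quantile normalization 170 passed, 108 higher and 62 lower, so the share of higher calls was 63.5% in place of 83.6%. Taking each gene as its brightest probe set, 65 of 13296 named genes rose (0.489%) and 11 fell (0.0827%). Every called change was at least 1.10 in size, 26 rises and 7 falls passed 2, and the median change over all named genes was 0.168. Without any adjustment, 2378 probe sets had a p under 0.05. In the same fit, 292 named genes rose (2.2%) and 18 fell (0.135%) in marginal minus deficient. In adequate minus deficient, 196 rose (1.47%) and 16 fell (0.12%). The marginal and adequate groups held 7 and 6 arrays against 2 supplemented ones, so these counts cannot be compared as sizes of the diet effects.

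The supplemented group held only 2 arrays, which set the reach of the comparison. Without supplemented replicate 1 the count of probe sets was 43, and without supplemented replicate 2 it was 59. The share of higher calls, 83.6% with both arrays, was then 51.2% (22 higher, 21 lower) and 55.9% (33 higher, 26 lower). Leaving out deficient replicate 5 gave 70, leaving out deficient replicate 4 gave 430, and leaving out all 4 arrays that stood apart gave 58. In the first run alone, where 2 supplemented and 2 deficient arrays could be set side by side, 57 probe sets passed (0.224%). All 116 changes had the same sign in that run, and 40 of the 116 passed there. These arrays are also part of the full fit that chose the 116, so the shared sign is not separate evidence. Calls for 14 of the 76 genes held however 1 supplemented or deficient array was left out: Sult1c3, Cyp26a1, Cyp2c22, Cyp3a9, Scd, Lrat, Rpp21, Tkfc, Rab38, Ppp1r3b, Yeats4, Adamtsl4, Rcbtb1 and Cyp17a1.

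**Figure D1:**
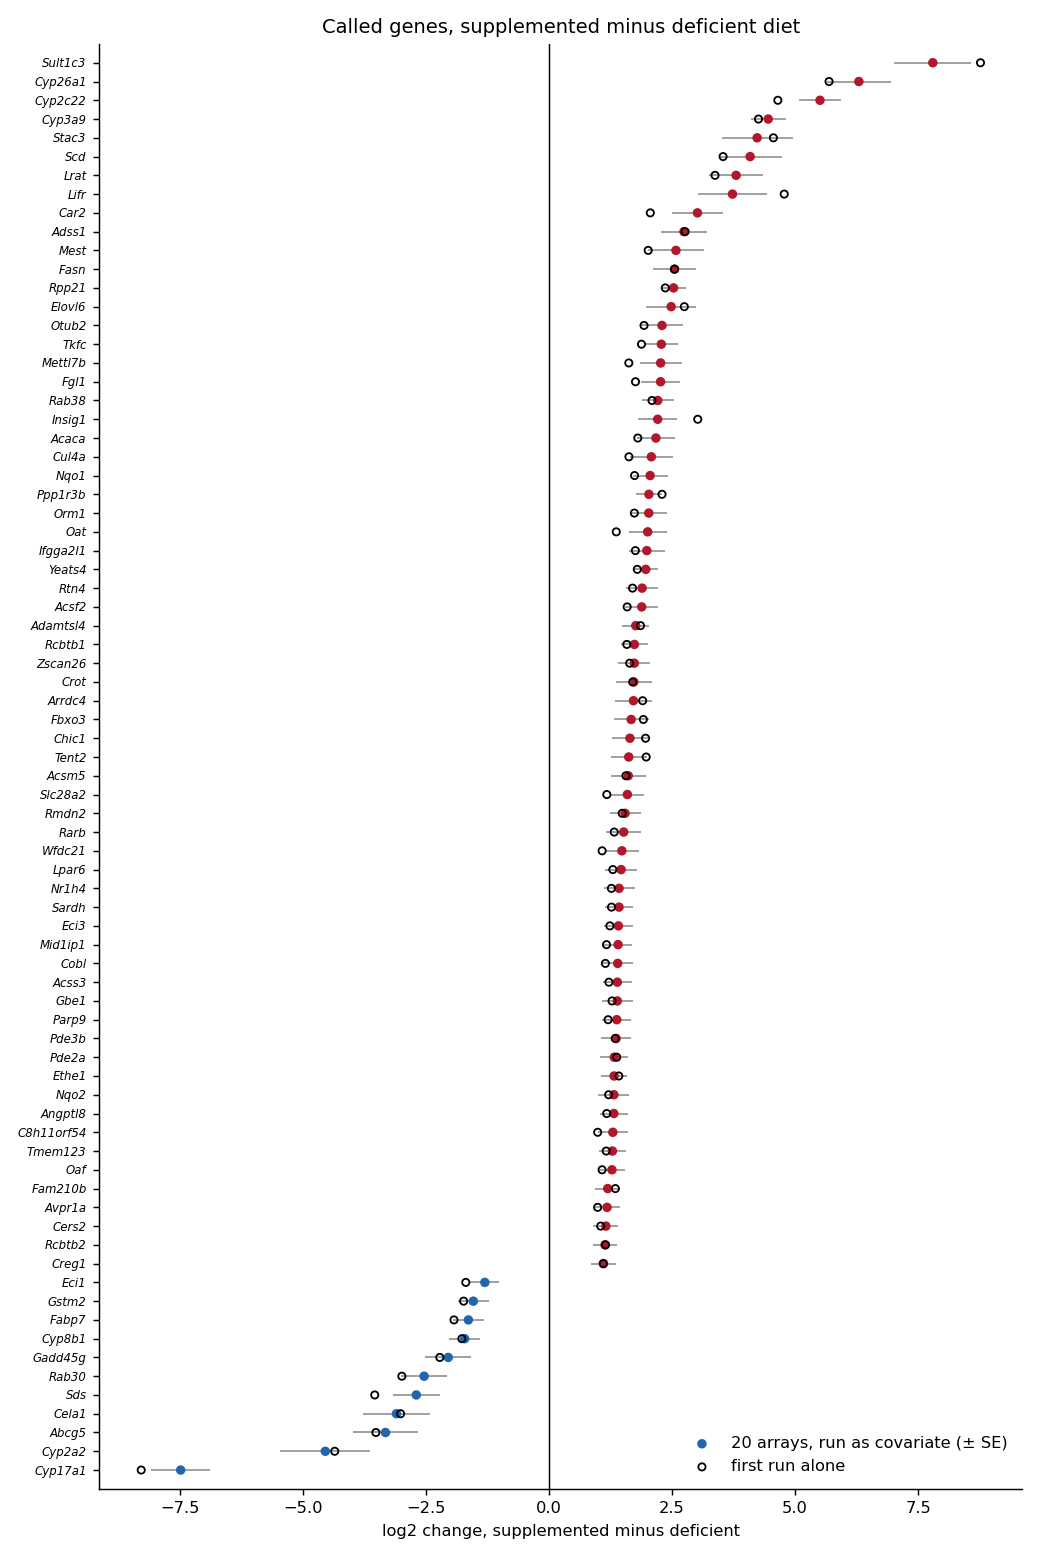
Log2 change, supplemented minus deficient, of the 76 called genes. Filled points with bars are the change and its SE from 20 arrays with run as a covariate (red higher, blue lower in supplemented liver), and open circles are the change in the first run alone. Changes run from -7.49 (Cyp17a1) to 7.80 (Sult1c3), and each open circle lies on the same side of 0 as its filled point. The first-run arrays are among the 20 arrays.

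The retinoic acid hydroxylases had the highest median change of the 39 gene lists. Of 6 retinoic acid hydroxylases tested, 3 rose and none fell, with a median change of 3.91 against 0.168 over all named genes. Over all named genes 0.489% rose. The lists were written with earlier results of these data known, so the rank and the count are descriptions and not separate evidence. Cyp26a1, which hydroxylates retinoic acid and so starts its breakdown, read -1.24, -1.46, -3.32, -1.43 and -0.43 on deficient replicates 1 to 5 and 4.28 and 5.24 on the supplemented arrays. Both supplemented arrays stood far above every deficient one, and deficient replicate 3 was at its array's floor. The change was 6.30 ± 0.65 (SE), or 78.5-fold (adjusted p = 2.57e-07), and 5.69 ± 0.59 in the first run alone.

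Cyp2c22, a rat liver P450 that also hydroxylates retinoic acid, read 0.67, 1.07, 0.90, 3.86 and 3.06 on the deficient arrays and 8.04 and 8.18 on the supplemented ones. Deficient levels differed between runs, with the first run higher, yet both supplemented arrays stayed above all of them. The change was 5.51 ± 0.42, or 45.4-fold (adjusted p = 7.23e-10), and 4.65 ± 0.33 in the first run alone. Cyp3a9, a P450 of the 3A family that is higher in female rat liver, read 0.92, 0.60, 1.79, 2.73 and 1.21 on deficient and 6.24 and 6.21 on supplemented arrays. The groups did not overlap, and the change was 4.45 ± 0.36, or 21.9-fold (adjusted p = 8.94e-10).

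Cyp26b1, the second Cyp26 hydroxylase, read -2.69, -1.20, -0.71, -3.67 and -3.03 on deficient and 0.75 and 2.01 on supplemented arrays. Both supplemented values lay above every deficient one, but with a spread near the low end of the scale the change of 3.37 ± 1.15 did not pass (adjusted p = 0.303). Cyp2c7, an abundant female-predominant P450 with retinoic acid hydroxylase activity, read 7.12, 6.94, 7.91, 7.80 and 7.08 on deficient arrays and 8.63 on both supplemented ones. Its groups did not overlap either, and its change of 1.27 ± 0.38 missed the threshold (adjusted p = 0.183).

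On the storage side, Lrat, which esterifies retinol for storage, read -2.17, 0.10, -3.32, -0.60 and -0.19 on deficient and 2.72 and 3.23 on supplemented arrays. Every deficient array lay below the supplemented pair, with deficient replicate 3 again at the floor. Lrat rose by 3.80 ± 0.55, or 13.9-fold (adjusted p = 0.000255). It was the only one of 15 retinol storage and binding genes that passed. Their median change was -0.46, with Pnpla3, a lipid droplet hydrolase that acts on retinyl esters, at 2.77 ± 0.84 (adjusted p = 0.203) and Rbp7, a cellular retinol-binding protein, at -3.47 ± 1.10 (adjusted p = 0.236).

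None of 21 genes for the oxidation and reduction of retinol and retinaldehyde passed, and their median change was 0.38. Dhrs3, which reduces retinaldehyde back to retinol, read 3.00, 3.28, 3.11, 4.21 and 4.19 on deficient and 4.64 and 4.74 on supplemented arrays. The supplemented pair lay just above the first-run deficient arrays, and the change of 0.68 ± 0.23 did not pass (adjusted p = 0.319). Rdh10, which oxidises retinol, changed by 0.65 ± 0.30 (adjusted p = 0.550).

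Among 12 retinoid receptors and cofactors only Rarb, the receptor gene known to be induced by its own ligand, was called. Rarb read 2.61, 2.61, 3.48, 4.18 and 2.67 on deficient and 4.55 and 4.95 on supplemented arrays. Deficient replicate 4 came close to the supplemented pair, and the other 4 were clearly lower. Its rise of 1.51 ± 0.35 (adjusted p = 0.0349) was the weakest among the retinoid genes that passed. The change was 0.83 without the arrays that stood apart (adjusted p = 0.548), and the call was also lost without either supplemented array (adjusted p = 0.172 and 0.476) and without deficient replicate 1, 2 or 5 (adjusted p = 0.067, 0.0763 and 0.194). Of 23 tested genes listed as targets of retinoic acid receptors, 3 rose and none fell, with a median of 0.34. Bmp2, a secreted growth factor on that list, was next at 1.66 ± 0.41 (adjusted p = 0.0723).

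**Figure D2:**
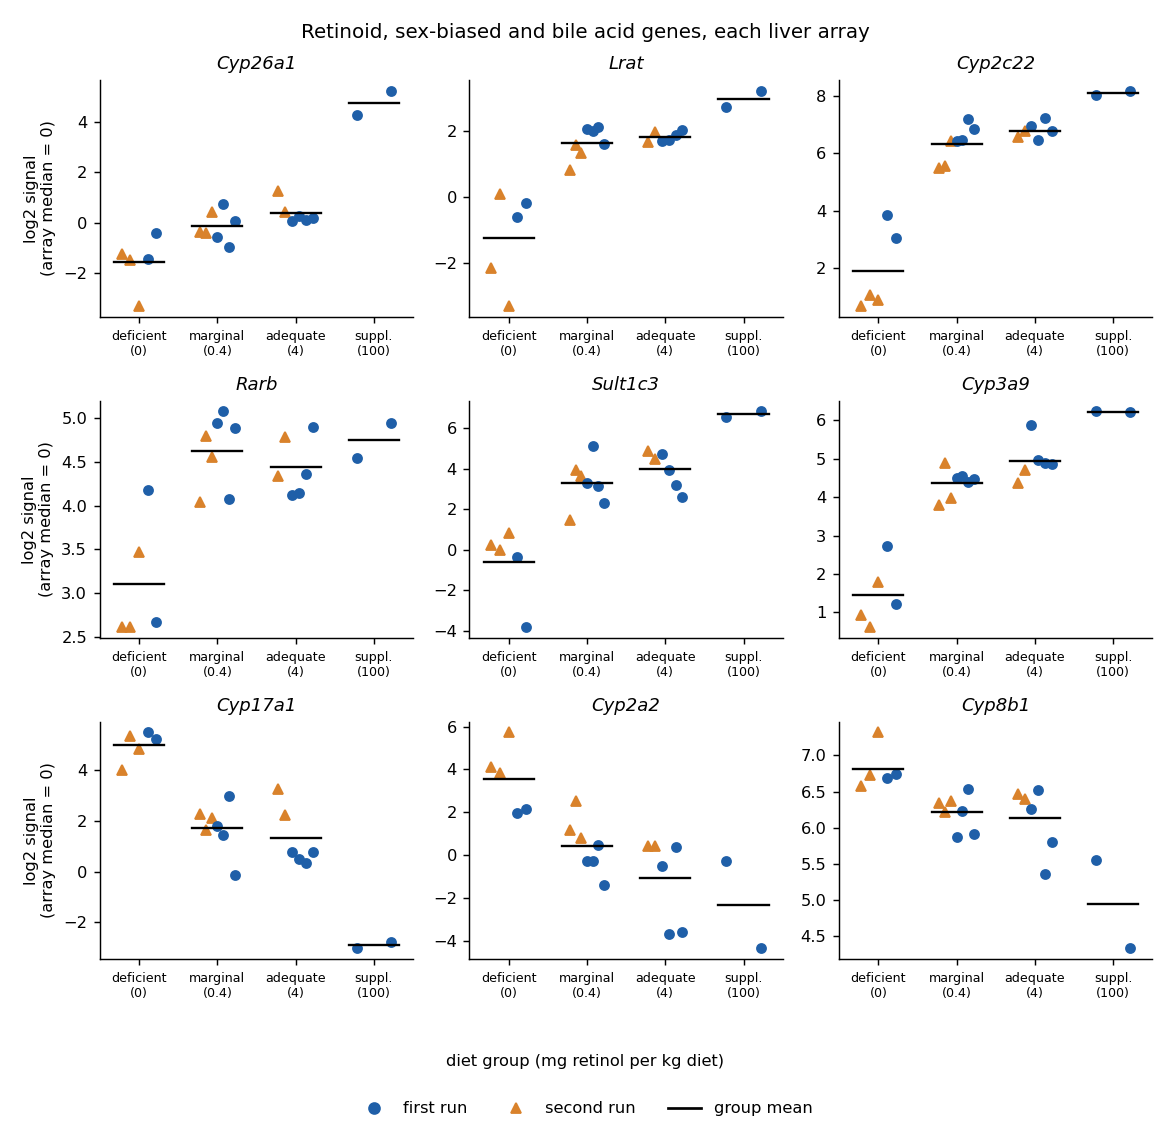
Log2 signal (vertical axis, array median at 0) of 9 genes on each of the 20 diet arrays, by diet group with its retinol content in mg per kg. Circles are first-run and triangles second-run arrays, and bars are group means. Cyp26a1 separates the supplemented pair (4.28 and 5.24) from all other arrays, while Cyp2c22, Lrat and Rarb rise mainly between the deficient and the marginal diet, and Cyp17a1 is lowest in the supplemented pair (-3.04 and -2.80).

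Promoter sequences are shown for 4 genes that rose, because retinoic acid receptors act through direct repeats near the start of their target genes. The 250 bases before each start were taken from RefSeq (rat build GRCr8), and capitals mark a DR5, the direct repeat with a spacer of 5 bases that the receptor pair is known to bind. The Cyp26a1 promoter is chr1:244883572-244883821 on the plus strand, that of Sult1c3 chr9:7594257-7594506, that of Cyp2c22 chr1:248980768-248981017 and that of Lrat chr2:170571213-170571462, the last 3 on the minus strand.
Cyp26a1: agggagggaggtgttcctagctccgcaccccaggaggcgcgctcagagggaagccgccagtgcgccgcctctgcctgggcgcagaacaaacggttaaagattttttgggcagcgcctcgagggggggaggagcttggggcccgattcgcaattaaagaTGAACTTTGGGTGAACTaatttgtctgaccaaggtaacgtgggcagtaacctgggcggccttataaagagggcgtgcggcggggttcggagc
Sult1c3: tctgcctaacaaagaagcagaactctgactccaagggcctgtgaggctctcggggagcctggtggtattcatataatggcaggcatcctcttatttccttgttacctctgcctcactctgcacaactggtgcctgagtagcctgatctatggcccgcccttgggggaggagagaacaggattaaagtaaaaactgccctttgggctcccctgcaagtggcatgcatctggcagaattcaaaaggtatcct
Cyp2c22: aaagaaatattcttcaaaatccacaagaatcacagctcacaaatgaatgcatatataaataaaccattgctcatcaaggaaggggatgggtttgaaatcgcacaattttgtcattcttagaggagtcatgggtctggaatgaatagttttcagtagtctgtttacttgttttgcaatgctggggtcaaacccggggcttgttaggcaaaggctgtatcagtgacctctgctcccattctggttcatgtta
Lrat: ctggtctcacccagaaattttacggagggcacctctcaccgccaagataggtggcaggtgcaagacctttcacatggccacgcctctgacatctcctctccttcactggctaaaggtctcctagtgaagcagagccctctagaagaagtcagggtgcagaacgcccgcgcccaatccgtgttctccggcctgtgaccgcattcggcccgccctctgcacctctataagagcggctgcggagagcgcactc

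The DR5 of Cyp26a1 lay at positions -92 to -76 from the start and reads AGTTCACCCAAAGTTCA on the opposite strand. The search took as hexamer A or G, then G, then G or T, then TCA. A DR5 was found, on either strand, in 89 of 27457 promoters of this length (0.324%). Of the called genes with a promoter entry, 1 of 50 that rose and 0 of 8 that fell held one. Repeats with a spacer of 1 or 2 bases were in none of those 50 or 8, and in 0.208% and 0.131% of all promoters. The shorter hexamer AGGTCA, searched alone on both strands, was in 8 of those 50 (16%), in 3 of those 8 and in 13.7% of all promoters. Cyp2c22 was among the rises with it, at -30 to -25 from its start. The hexamer AGTTCA, which makes up the DR5 of Cyp26a1, was in 6 of those 50 (12%), in 1 of those 8 and in 12.1% of all promoters. These matches describe the letters in the window and not binding.

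The largest changes in each direction belonged to a sulfotransferase and a steroid-synthesis enzyme. Sult1c3, a cytosolic sulfotransferase, read 0.26, 0.02, 0.82, -0.33 and -3.82 on deficient and 6.55 and 6.83 on supplemented arrays. Deficient replicate 5 lay well below the other deficient arrays, which clustered near the array median. Sult1c3 rose by 7.80 ± 0.78, or 223-fold (adjusted p = 1.29e-07), and by 6.72 without deficient replicate 5 (adjusted p = 1.13e-07). No other gene among 15 sulfotransferases and their cofactor enzymes passed, with Sult1b1, which sulfates thyroid hormones and phenols, at 0.90 ± 0.31 (adjusted p = 0.319).

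Cyp17a1, the 17α-hydroxylase of steroid hormone synthesis, read 4.00, 5.34, 4.84, 5.50 and 5.25 on deficient and -3.04 and -2.80 on supplemented arrays. Deficient arrays were all high and supplemented ones both far below the array median. Cyp17a1 fell by 7.49 ± 0.60, or 180.2-fold (adjusted p = 8.94e-10), and by 8.29 in the first run alone. It was the only called gene among 27 of steroid metabolism, whose median change was 0.02. Hsd17b6, a hydroxysteroid dehydrogenase that also acts on retinol, stood at 1.40 ± 0.36 (adjusted p = 0.0802).

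Sex-biased liver genes moved in both directions. Among 41 tested, Sult1c3, Cyp3a9 and Lifr rose and Cyp17a1, Cyp2a2 and Gstm2 fell, with a median change of 0.17. Cyp2a2, a male-predominant testosterone hydroxylase, read 4.11, 3.85, 5.73, 1.99 and 2.15 on deficient and -0.26 and -4.32 on supplemented arrays. Second-run deficient arrays were the highest, and both supplemented arrays lay below all 5. Cyp2a2 fell by 4.55 ± 0.92, or 23.5-fold (adjusted p = 0.0111), but the supplemented arrays differed widely. Without supplemented replicate 2 the change was -2.52 (adjusted p = 0.685), and without the arrays that stood apart it was -4.88 (adjusted p = 0.0569).

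Lifr, the receptor for leukaemia inhibitory factor and higher in female rat liver, was an exception to the separation of the groups. It read 1.63, 1.63, 2.40, -3.37 and -1.43 on deficient and 2.38 and 2.37 on supplemented arrays. The 3 second-run deficient arrays reached or approached the supplemented level, and only the 2 first-run deficient arrays were low. Its rise of 3.73 ± 0.69 (adjusted p = 0.00473) thus rested on the adjustment for run, and was 4.78 ± 0.82 within the first run. Without either supplemented array Lifr did not pass (adjusted p = 0.0974 and 0.0886). It was the only one of the 65 rises in which the supplemented arrays did not both exceed every deficient array, a separation that 8.48% of all named genes showed. Among falls, 9 of 11 had both supplemented arrays below every deficient one, against 3.29% of all named genes. Rises and falls were called on these same arrays, so their separation follows largely from that choice and is not further evidence.

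Gstm2, a mu-class glutathione transferase, was one of the 2 falls with overlap. It read 4.51, 4.85, 4.85, 6.41 and 6.89 on deficient and 5.20 and 4.62 on supplemented arrays. Only the first-run deficient arrays were above the supplemented pair. Gstm2 fell by 1.54 ± 0.32 (adjusted p = 0.0158), and the call was lost without supplemented replicate 1 or 2 or deficient replicate 5 (adjusted p = 0.0629, 0.405 and 0.082). Nqo1, a quinone reductase induced by NRF2, rose by 2.05 ± 0.36 (adjusted p = 0.00254), and did not pass without supplemented replicate 1 (adjusted p = 0.113). The list of 32 glutathione transferases and NRF2 targets had these 2 calls and a median of 0.04, with Gstt3 at 2.10 ± 0.50 (adjusted p = 0.0518).

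Fatty acid synthesis held the largest number of rises of any list. Of 38 lipogenesis genes, 6 rose and none fell, against 0.489% and 0.0827% of all named genes. Their median was 0.45, against 0.168 over all named genes. Medians of the interferon response, cholesterol synthesis and glycolysis lists were 0.51, 0.479 and 0.457. The lists differ in length, so counts of rises are not directly comparable between them. Scd, the desaturase that makes oleate, read 2.26, 1.44, 2.14, 3.73 and 3.48 on deficient and 7.02 and 7.27 on supplemented arrays. Every deficient array was low, the second run lowest. Scd rose by 4.08 ± 0.64, or 17.0-fold (adjusted p = 0.000704), and by 3.54 ± 0.83 in the first run alone (adjusted p = 0.101).

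Fasn, the fatty acid synthase, read 3.73, 3.39, 3.84, 3.56 and 3.09 on deficient and 6.06 and 5.70 on supplemented arrays. The deficient arrays of both runs lay within 1 unit of each other, and the groups were far apart. Fasn rose by 2.55 ± 0.43, or 5.85-fold (adjusted p = 0.00204), and a second Fasn probe set, chosen after its value was seen, gave 2.90 ± 0.52. The call was lost without supplemented replicate 1 (adjusted p = 0.0829) and without the arrays that stood apart (adjusted p = 0.0564).

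Elovl6, which elongates palmitate, read 2.56, 2.60, 2.09, 1.64 and 0.76 on deficient and 4.28 and 3.61 on supplemented arrays. First-run deficient arrays were lowest. It rose by 2.48 ± 0.51, or 5.57-fold (adjusted p = 0.0133), a call lost without supplemented replicate 1 or 2 or deficient replicate 5 (adjusted p = 0.338, 0.0657 and 0.0785) and without the arrays that stood apart (adjusted p = 0.113). Acaca, the acetyl-CoA carboxylase of the committed step, rose by 2.17 ± 0.38 (adjusted p = 0.00262). Mid1ip1, an activator of that carboxylase, rose by 1.40 ± 0.28 (adjusted p = 0.00866). Angptl8, a secreted regulator of lipoprotein lipase that follows feeding, rose by 1.31 ± 0.28 (adjusted p = 0.0182), and stood at 0.83 without supplemented replicate 1 (adjusted p = 0.724). Without 1 supplemented array Acaca and Mid1ip1 also lost their calls (adjusted p of 0.0683 and 0.059 for Acaca, and 0.481 without replicate 1 for Mid1ip1).

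Other enzymes of the same route moved less or with more spread. Acly, which supplies cytosolic acetyl-CoA, changed by 1.33 ± 0.38 (adjusted p = 0.150), and Gpam, the first acyltransferase of triglyceride synthesis, by 1.88 ± 0.53 (adjusted p = 0.143). Pklr, the liver pyruvate kinase, changed by 1.67 ± 0.42 (adjusted p = 0.0806) at its brighter probe set and by 1.92 ± 0.45 (adjusted p = 0.039) at another, chosen after its value was seen. Elovl2, which elongates polyunsaturated fatty acids, stood at -1.04 ± 0.31 (adjusted p = 0.194).

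**Figure D3:**
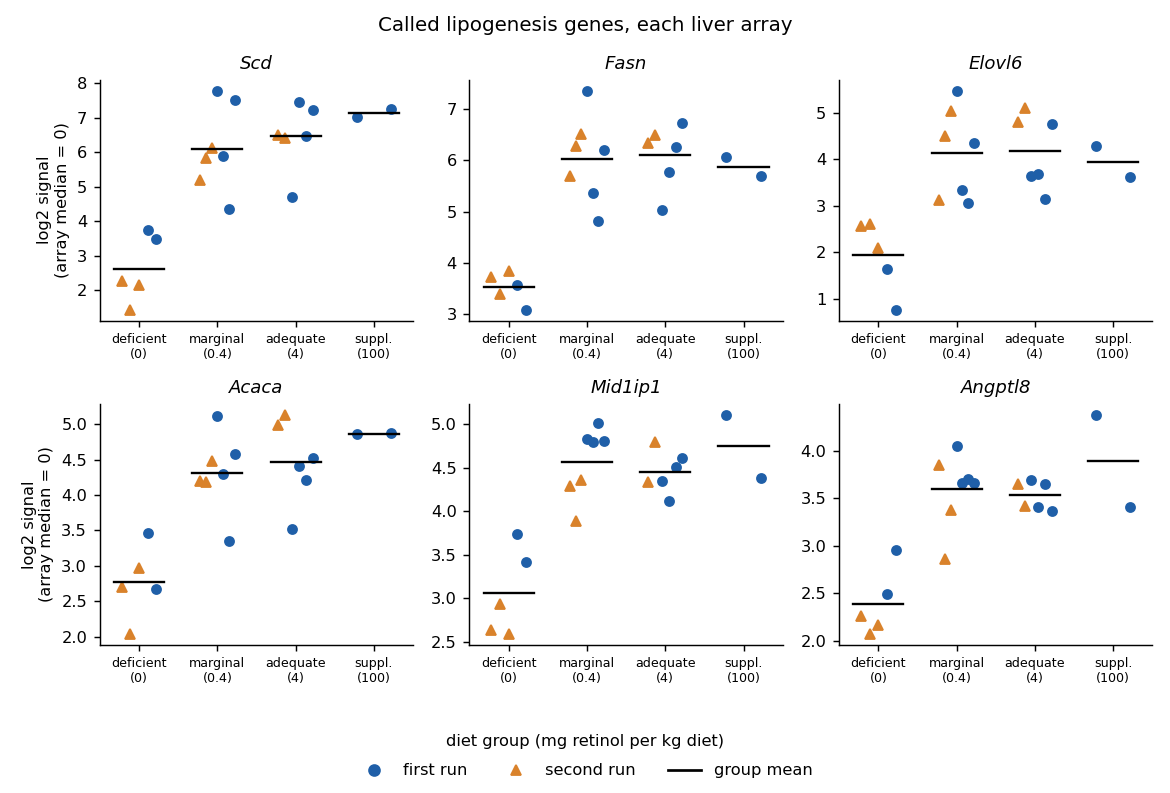
Log2 signal (vertical axis, array median at 0) of the 6 called lipogenesis genes on each diet array, by diet group with its retinol content in mg per kg. Circles are first-run and triangles second-run arrays, and bars are group means. The supplemented pair lies above the deficient arrays for all 6 and within the range of marginal and adequate arrays for Scd, Fasn, Elovl6 and Acaca.

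Insig1, the endoplasmic reticulum protein that restrains SREBP activation, was the only call among 22 cholesterol synthesis genes, whose median was 0.48. It rose by 2.20 ± 0.40 (adjusted p = 0.00370), and did not pass without supplemented replicate 1 (adjusted p = 0.0683) or replicate 2 (adjusted p = 0.105). The enzymes Lss and Msmo1 stood at 1.18 ± 0.33 (adjusted p = 0.128) and 1.34 ± 0.38 (adjusted p = 0.156).

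Sterol export and bile acid genes gave 3 calls, with Abcg5 and Cyp8b1 lower and Nr1h4 higher. Abcg5, which pairs with Abcg8 to export sterols into bile, read 2.22, 2.02, 2.74, 2.52 and 2.55 on deficient and 0.27 and -2.24 on supplemented arrays. Deficient arrays agreed within 1 unit, while the supplemented pair was lower and far apart. Abcg5 fell by 3.33 ± 0.66, or 10.1-fold (adjusted p = 0.00958). Without supplemented replicate 2 its change was -2.07 (adjusted p = 0.594), and without the arrays that stood apart -3.54 (adjusted p = 0.074). Its partner Abcg8 stood at -4.02 ± 1.07 (adjusted p = 0.109). Abcg5 was the only call among 24 sterol transport genes (median -0.09).

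Cyp8b1, the sterol 12α-hydroxylase that sets the share of cholic acid, read 6.58, 6.73, 7.32, 6.68 and 6.75 on deficient and 5.55 and 4.33 on supplemented arrays. All 5 deficient arrays were above both supplemented ones. It fell by 1.72 ± 0.32, or 3.29-fold (adjusted p = 0.00479), and by 1.11 without supplemented replicate 2 (adjusted p = 0.495). Nr1h4, the bile acid receptor FXR, rose by 1.42 ± 0.31 (adjusted p = 0.0246), a call lost without either supplemented array or deficient replicate 5 (adjusted p = 0.0802, 0.546 and 0.141), and the change was 0.85 without the arrays that stood apart (adjusted p = 0.293). Of 32 bile acid genes these were the only calls. A positive change was seen for 21 and a negative one for 11 (median 0.25), against 8299 and 4997 of 13296 named genes. Slco1b2, a bile acid uptake transporter, changed by 1.24 ± 0.34 (adjusted p = 0.125) at its brightest probe set and by 1.80 ± 0.37 (adjusted p = 0.0143) at another, chosen after its value was seen. Abcb4, the phospholipid exporter, was at -1.06 ± 0.27 (adjusted p = 0.0808) and Nr0b2, a repressor induced by FXR, at 1.11 ± 0.39 (adjusted p = 0.337).

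Fatty acid-binding and oxidation genes showed few calls and both directions. Fabp7, a fatty acid-binding protein best known from brain, read 5.19, 5.78, 5.75, 7.16 and 6.91 on deficient and 5.05 and 5.14 on supplemented arrays. The second-run deficient array lowest in Fabp7 was nearly level with the supplemented pair, and first-run deficient arrays were far higher. Fabp7 fell by 1.64 ± 0.31 (adjusted p = 0.00480), a call lost without either supplemented array (adjusted p = 0.121 and 0.0788). Eci1, a mitochondrial enoyl-CoA isomerase of beta-oxidation, read 4.97, 5.62, 5.86, 6.30 and 6.30 on deficient and 4.44 and 4.77 on supplemented arrays. Its groups did not overlap. Eci1 fell by 1.31 ± 0.29 (adjusted p = 0.0273), and was not called without supplemented replicate 1 or 2 or deficient replicate 5 (adjusted p = 0.480, 0.142 and 0.138).

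Crot, the peroxisomal carnitine octanoyltransferase, rose by 1.72 ± 0.36 (adjusted p = 0.0166), and lost its call without supplemented replicate 1 or 2 or deficient replicate 5 (adjusted p = 0.440, 0.0572 and 0.0935). With Eci1 it made up the calls among 52 oxidation genes, whose median was -0.13. Cpt1a, the carnitine palmitoyltransferase that admits fatty acids to mitochondria, stood at -1.50 ± 0.44 (adjusted p = 0.170), Cpt2 at -0.92 ± 0.28 (adjusted p = 0.195) and Fgf21, a hormone of the fasted liver, at -2.44 ± 0.70 (adjusted p = 0.163).

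Glycogen and amino acid genes gave 4 calls, 2 of 26 genes of glycolysis and glycogen (median 0.46) and 2 of 55 of gluconeogenesis and amino acid breakdown (median 0.09). Ppp1r3b, which targets protein phosphatase 1 to glycogen, rose by 2.03 ± 0.26 (adjusted p = 1.91e-05). Its other, dimmer probe set stood at 0.83 ± 0.94 (adjusted p = 0.852), and the mean of both at 1.43 (adjusted p = 0.348). Gbe1, the glycogen branching enzyme, rose by 1.38 ± 0.31 (adjusted p = 0.0267). Oat, ornithine aminotransferase, rose by 2.00 ± 0.39 (adjusted p = 0.00731). Sds, the serine dehydratase that feeds gluconeogenesis, read 4.33, 4.98, 5.43, 4.49 and 4.22 on deficient and 0.14 and 1.47 on supplemented arrays. All deficient arrays were high. Sds fell by 2.70 ± 0.47, or 6.51-fold (adjusted p = 0.00262), by 3.55 in the first run, and was at -2.04 without supplemented replicate 1 (adjusted p = 0.261). Without either supplemented array Gbe1 and Oat lost their calls (adjusted p of 0.348 and 0.221 for Gbe1, 0.188 and 0.0797 for Oat), and Gbe1 also without deficient replicate 2 or 5 (adjusted p = 0.0547 and 0.145). The change of Gbe1 was 0.76 without the arrays that stood apart (adjusted p = 0.307).

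Several of the largest rises lie outside these pathways. Stac3, an adaptor known from calcium release in skeletal muscle, read -0.99, 0.37, -1.79, -4.37 and -0.36 on deficient and 2.37 and 2.01 on supplemented arrays. Deficient replicate 4 was lowest, and no deficient array reached the supplemented pair. Stac3 rose by 4.23 ± 0.72, or 18.7-fold (adjusted p = 0.00227), and did not pass without supplemented replicate 1 (adjusted p = 0.0796).

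Car2, the cytosolic carbonic anhydrase II, read -1.57, -2.02, -0.36, 1.82 and 0.73 on deficient and 3.59 and 3.07 on supplemented arrays. First-run deficient arrays stood above second-run ones and below the supplemented pair. Car2 rose by 3.01 ± 0.53, or 8.08-fold (adjusted p = 0.00262), by 2.06 ± 0.44 in the first run (adjusted p = 0.0572) and by 2.75 without supplemented replicate 1 (adjusted p = 0.117). Adss1, the muscle-type adenylosuccinate synthase of the purine nucleotide cycle, read -1.14, 0.28, 0.26, 1.09 and -1.44 on deficient and 2.45 and 2.73 on supplemented arrays. Its groups did not overlap. Adss1 rose by 2.74 ± 0.47, or 6.67-fold (adjusted p = 0.00231), with an adjusted p of 0.0764 without supplemented replicate 2. A dimmer Adss1 probe set stood at 0.63 ± 0.53 (adjusted p = 0.784). The other 14 carbonic anhydrases and purine cycle genes tested were not called, and the median over all 16 was -0.16.

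Mest, an imprinted gene for a hydrolase-like protein, read 0.87, -1.06, 0.38, 0.74 and -0.07 on deficient and 3.13 and 1.56 on supplemented arrays. Supplemented replicate 1 carried much of the difference. Mest rose by 2.58 ± 0.57 (adjusted p = 0.0244), and the change was 1.79 without that array (adjusted p = 0.688), 2.64 without deficient replicate 5 (adjusted p = 0.0561) and 2.20 without the arrays that stood apart (adjusted p = 0.204). Rpp21, a protein subunit of the transfer RNA-processing ribonuclease P, read 2.82, 2.88, 3.19, 3.64 and 3.58 on deficient and 5.87 and 6.08 on supplemented arrays. The supplemented pair lay above the deficient arrays of both runs. Rpp21 rose by 2.53 ± 0.25, or 5.77-fold (adjusted p = 1.21e-07). Otub2, a deubiquitinating enzyme, read -0.58, -0.35, -0.01, 0.53 and 0.86 on deficient and 3.00 and 2.23 on supplemented arrays. Both supplemented arrays were higher than all deficient ones. Otub2 rose by 2.29 ± 0.42 (adjusted p = 0.00405), and was at 1.91 without supplemented replicate 1, where its call was lost. A dimmer Otub2 probe set stood at 1.25 ± 0.56 (adjusted p = 0.539), and the call was also lost when both were averaged.

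Among the remaining falls, Rab30, a small GTPase of the Golgi that was placed on the clock list, read 3.85, 3.87, 4.40, 4.36 and 4.33 on deficient and 0.92 and 1.77 on supplemented arrays. Deficient arrays were uniformly high. Rab30 fell by 2.54 ± 0.47, or 5.83-fold (adjusted p = 0.00473), and was at -2.12 without supplemented replicate 1 (adjusted p = 0.251). It was the only call among 22 clock genes, where Hlf, a clock output factor, was next at 1.67 ± 0.40 (adjusted p = 0.0525).

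Gadd45g, a growth arrest and stress gene, read 2.22, 2.26, 2.41, 2.62 and 3.32 on deficient and 0.71 and 0.77 on supplemented arrays. The groups did not overlap. It fell by 2.05 ± 0.47 (adjusted p = 0.0323), a call lost without supplemented replicate 1 or 2 or deficient replicate 5 (adjusted p = 0.314, 0.264 and 0.160) and without the arrays that stood apart (adjusted p = 0.251). Cela1, a pancreatic elastase, read 0.95, 1.25, 1.61, 3.04 and 2.40 on deficient and 1.14 and -1.74 on supplemented arrays. Supplemented replicate 1 lay among the deficient arrays, so that the fall of 3.11 ± 0.68 (adjusted p = 0.0228) leaned on replicate 2. Without replicate 2 the change was -1.67 (adjusted p = 0.821), and without the arrays that stood apart -3.41 (adjusted p = 0.113). No other gene of 18 tested acinar genes was called, and Cpa1, a pancreatic carboxypeptidase that is also on the sex-biased list, stood at 2.28 ± 0.69 (adjusted p = 0.195).

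The other rises were between 1.10 and 2.28. Tkfc, the triokinase of fructose metabolism, rose by 2.28 ± 0.34 (adjusted p = 0.000361), Rab38, a GTPase of lysosome-related organelles, by 2.21 ± 0.33 (adjusted p = 0.000348) and Yeats4, a reader of acetylated histones, by 1.96 ± 0.25 (adjusted p = 2.80e-05). A dimmer Yeats4 probe set stood at 0.18 ± 0.43 (adjusted p = 0.940), and the mean of both at 1.07 (adjusted p = 0.0553). Fgl1, a fibrinogen-like protein secreted by hepatocytes, rose by 2.26 ± 0.39 (adjusted p = 0.00262), Orm1, an acute phase glycoprotein, by 2.02 ± 0.36 (adjusted p = 0.00337) and Mettl7b by 2.27 ± 0.43 (adjusted p = 0.00554). Those 3 lost the call without a supplemented array, Mettl7b without replicate 1 (adjusted p = 0.286), Fgl1 without replicate 2 (adjusted p = 0.109) and Orm1 without either (adjusted p = 0.0796 and 0.0704).

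Among genes of lipid activation and breakdown, the change was 1.88 for Acsf2, 1.61 for Acsm5 and 1.38 for Acss3, which attach coenzyme A to fatty acids, 1.41 for Eci3, a peroxisomal isomerase, and 1.15 for Cers2, a ceramide synthase. For enzymes of redox, sulfur and one-carbon metabolism it was 1.42 for Sardh, sarcosine dehydrogenase, 1.32 for Ethe1, a persulfide dioxygenase, and 1.31 for Nqo2, a quinone reductase. In signalling it was 1.46 for Lpar6, a lysophosphatidic acid receptor, 1.18 for Avpr1a, the vasopressin receptor of liver, 1.36 for Pde3b and 1.32 for Pde2a, which hydrolyse cyclic nucleotides, and 1.71 for Arrdc4, an arrestin-domain protein. Regulators of protein and RNA turnover comprised Cul4a (2.08) and Fbxo3 (1.67), parts of ubiquitin ligases, and Tent2 (1.62), a poly(A) polymerase. All of these were called rises. Acsm5 did not pass under quantile normalization (1.36, adjusted p = 0.0848) and stood at 0.23 with a replicate block beside run (adjusted p = 0.957).

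Further called rises were Ifgga2l1 (1.98), Rtn4 (1.89), an endoplasmic reticulum-shaping protein, Adamtsl4 (1.76), an extracellular matrix protein, Rcbtb1 (1.73), Zscan26 (1.73), Chic1 (1.64), Slc28a2 (1.59), a nucleoside transporter, Rmdn2 (1.54), Wfdc21 (1.48), Cobl (1.39), an actin nucleator, Parp9 (1.37), an ADP-ribosyltransferase, C8h11orf54 (1.29), Tmem123 (1.28), Oaf (1.28), Fam210b (1.19), Rcbtb2 (1.13) and Creg1 (1.10). Their adjusted p-values in limma ran up to the threshold, with Creg1 and Nqo2 at 0.0498. A dimmer Cobl probe set stood at -0.46 ± 0.69 (adjusted p = 0.893). Leaving out supplemented replicate 1 removed 55 of the 76 called genes and leaving out replicate 2 removed 50. Without the arrays that stood apart 44 lost their call, and without deficient replicate 5 alone 31 did.

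Of the 116 called probe sets, 26 had no single gene name and 14 were further probe sets of named genes. Some of those 14 were chosen here after their values were seen because a brighter probe set of the gene did not move with them. Ddx19b, an RNA helicase, was lower by 4.51 ± 0.69 at 1 probe set (adjusted p = 0.000514) and stood at 0.12 ± 0.40 at its brightest. Likewise Pogz was at -3.29 ± 0.72 and -0.06 ± 0.68, and Vangl2, a planar polarity protein, at -3.93 ± 0.94 and -0.49 ± 1.11. Ccnd1, the cyclin of early G1 phase, was lower by 1.28 ± 0.29 at 1 probe set (adjusted p = 0.0296) and at -0.84 ± 0.44 at the brightest (adjusted p = 0.615).

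Lists without any call included the hepatocyte, Kupffer cell, endothelial, cholangiocyte, lymphocyte, erythroid, neutrophil and adipocyte markers. In whole liver, fewer cells of a type and less RNA per cell cannot be told apart. The summed linear signal of 17 hepatocyte markers, in multiples of the array median, ranged from 2650 to 10400 on deficient arrays and from 4120 to 4200 on supplemented ones. For 18 Kupffer cell markers, none of them called, the sum was 131 to 434 on deficient and 244 to 354 on supplemented arrays, with Cd163 at -0.55 ± 0.37 and Clec4f at -0.19 ± 0.33. The supplemented sums lay inside the deficient range of both runs together for both lists. In the first run alone the median change was -0.558 for hepatocyte and -0.312 for Kupffer cell markers, against 0.0325 over all named genes. In the full fit these medians were -0.138, 0.016 and 0.168. Clec4f read 5.885 and 5.895 on first-run deficient, 3.85 to 4.65 on second-run deficient and 4.71 and 5.51 on supplemented arrays.

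For 38 stellate cell and matrix genes the sum was 110 to 180 on deficient and 128 to 205 on supplemented arrays, and only Lrat was called. Reln and Des, other stellate markers, stood at 0.60 ± 0.31 (adjusted p = 0.611) and -0.998 ± 0.590 (adjusted p = 0.662), and Lum, a matrix proteoglycan, at 4.03 ± 1.06 (adjusted p = 0.0999). The part of stellate cell number in the rise of Lrat was not tested. The 21 sinusoidal endothelial genes summed to 76.2 to 181 on deficient and 152 to 211 on supplemented arrays, with Lyve1 at 1.03 ± 0.33 (adjusted p = 0.240) and Stab2 at 0.63 ± 0.37. Acinar genes summed to 15.6 to 21.0 and 12.9 to 29.1, and their levels varied over the diet arrays. Cpa1 was at most 0.815 on deficient arrays and at least 1.577 on marginal, 2.455 on adequate and 1.058 on supplemented ones. In limma its marginal and adequate minus deficient changes were called, at 2.72 (adjusted p = 0.000669) and 2.83 (adjusted p = 0.000809). For Cela1 the same contrasts were negative, at -1.38 and -1.29, and not called. Cpa1 lay between the 27.2nd and the 95.3rd percentile of an array and Cela1 between the 24.4th and the 86.9th, while Prss1 and Pnlip stayed at or below the 54.7th and the 62.4th. The part of acinar RNA in the fall of Cela1 was not tested. Adipoq, the fat cell marker, stayed at or below the 63.6th percentile.

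Immune lists held few calls. Of 48 interferon response genes, 43 had a positive change, against 8299 of 13296 named genes. Only Parp9 was called, and the median was 0.51 against 0.168 over all named genes. In the first run alone these medians were 0.275 and 0.0325. Ifi27l2b and Rtp4, both induced by interferon, stood at 1.44 ± 0.36 (adjusted p = 0.0780) and 1.42 ± 0.36 (adjusted p = 0.0787). All 8 MHC class II genes had a negative change, against 4997 of 13296 named genes, and none was called. Their median was -0.69, with Cd74, the invariant chain, at -0.73 ± 0.27 (adjusted p = 0.394). First-run deficient arrays were high for this list, with Cd74 at 6.31 on both. Of 29 acute phase genes, Orm1 was the only call and the median was -0.17.

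No gene passed among 40 cell cycle, 28 endoplasmic reticulum stress, 14 thyroid hormone or 8 glucuronosyltransferase genes. Bub1, a spindle checkpoint kinase, stood at -3.98 ± 1.02 (adjusted p = 0.0808), Thrsp, a lipogenic gene driven by thyroid hormone, at 1.20 ± 0.37 (adjusted p = 0.208) and Ugt2b1 at -1.33 ± 0.36 (adjusted p = 0.117). Of 28 growth hormone and IGF genes, Lifr and Gadd45g were the calls. Among 39 drug-metabolising P450 genes and regulators 2 rose and 1 fell, with Alas1, the first enzyme of haem synthesis, at 1.10 ± 0.29 (adjusted p = 0.0985). None of 10 fatty acid-binding proteins other than Fabp7 was called.

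**Figure D4:**
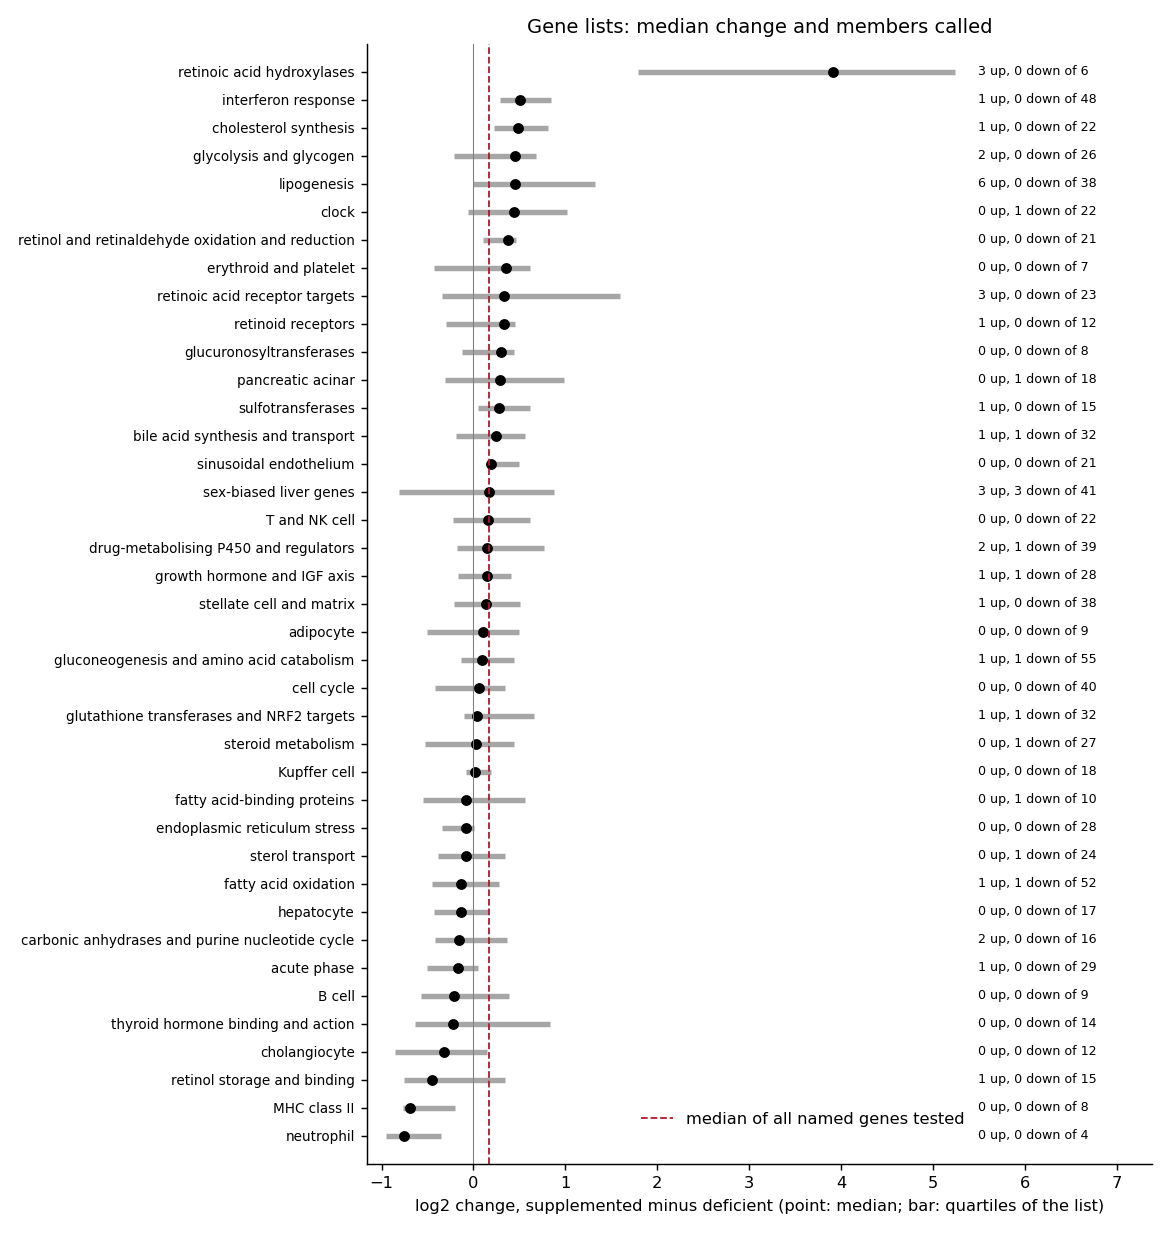
Change of 39 gene lists, supplemented minus deficient. Points are list medians on the log2 scale, bars the quartiles of the list, the dashed line the median of all named genes tested (0.168), and the text gives members called higher and lower of those tested. Retinoic acid hydroxylases stand alone at 3.91, and lipogenesis has the most rises (6 of 38). The lists were written with earlier results of these data known.

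The marginal and adequate groups place these changes along the range of diets, although the contrasts share arrays and cannot be counted as separate evidence. Over the 65 rises, the median of adequate minus deficient was 1.30 and that of supplemented minus adequate 0.41. Fasn stood 2.66 above deficient liver on the adequate diet and -0.12 ± 0.41 in supplemented minus adequate. For Scd, the same contrasts were 3.65 and 0.43 ± 0.60, and for Rpp21 they were 2.18 and 0.35 ± 0.24. Rarb was 1.28 above deficient on the adequate and 1.48 on the marginal diet, with 0.24 ± 0.33 for supplemented minus adequate. Lrat gave 2.89, 2.77 and 0.91 ± 0.52 in the same order. Steps from adequate to supplemented near that of Lrat were seen for Cyp3a9 (1.10 ± 0.34), Cyp2c22 (0.94 ± 0.40) and Rtn4 (0.98 ± 0.31). For each of these and for Lrat, both supplemented arrays exceeded every adequate array, but none of the steps passed.

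Only 2 named genes passed in supplemented minus adequate, Cyp26a1 higher and Cyp17a1 lower (0.00752% of named genes each). Both supplemented arrays lay above every adequate array for 16 of the 65 rises, against 3.57% of all named genes, and below every adequate array for 2 of the 11 falls, against 2.49%. The rises and falls were chosen with the same 2 supplemented arrays, so these shares are descriptions only. Cyp26a1 averaged -1.58 ± 1.06 (SD, n = 5) on the deficient, -0.14 ± 0.60 (SD, n = 7) on the marginal, 0.38 ± 0.45 (SD, n = 6) on the adequate and 4.76 ± 0.68 (SD, n = 2) on the supplemented diet. Most of its range thus lay above the adequate diet, by 4.35 ± 0.62 (adjusted p = 0.000729), while adequate minus deficient was 1.94 (adjusted p = 0.0255). Cyp17a1 dropped by 3.49 from deficient to adequate (adjusted p = 3.42e-06) and by a further 4.00 ± 0.56 from adequate to supplemented (adjusted p = 0.000729). Sult1c3 stood 4.80 above deficient on the adequate diet and a further 2.99 ± 0.74 on the supplemented, and the latter step did not pass (adjusted p = 0.380). Neither did Cyp8b1 at -1.11 ± 0.30 (adjusted p = 0.853).

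The same genes were read in other rats of the series, deficient females of 8 weeks given about 100 ug of all-trans-retinoic acid and killed 3, 6, 10 or 16 h later (3 arrays per time, 4 at 10 h) or given vehicle (3 arrays). No array is shared with the diet comparison, but all times share the vehicle arrays. Of the 65 genes that rose with supplementation, 6 were called higher at 3 h (0.103% of all named genes were), 8 at 6 h (0.162%), 10 at 10 h (0.147%) and 7 at 16 h (0.228%). None was called lower at any time. Of the 11 that fell, 0 were called lower at 3 h (0%), 1 at 6 h (0.117%), 2 at 10 h (0.565%) and 6 at 16 h (8.33%), and none higher. The median change of all named genes was itself 0.03, -0.10, -0.23 and -0.49 at the 4 times, with 26.6% of them positive at 16 h, so that values at 16 h stand against a general downward shift.

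The retinoid genes answered within hours. Cyp26a1 read -0.89, -1.14 and -4.73 on vehicle arrays, 4.03, 3.50 and 4.60 at 3 h and 6.52, 6.27 and 6.45 at 6 h. All treated arrays at those times were above vehicle, and at 16 h the values of 0.38, -2.71 and 4.16 had spread apart. The change was 6.30 ± 0.94 at 3 h (adjusted p = 0.00220), 8.67 ± 0.94 at 6 h (adjusted p = 9.63e-06) and 2.86 ± 0.94 at 16 h (adjusted p = 0.0643). Cyp2c22 changed by 3.76 ± 0.60 at 3 h (adjusted p = 0.00263) and 4.61 ± 0.56 at 10 h (adjusted p = 2.94e-05). Rarb was called at 3 h (1.78 ± 0.29, adjusted p = 0.00323) and 6 h (1.39 ± 0.29, adjusted p = 0.0297), and stood at -0.53 ± 0.29 at 16 h.

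Lrat stood at 3.55 ± 0.82 at 3 h (adjusted p = 0.122) and was called from 6 h on, with 3.95 ± 0.82 at 6 h (adjusted p = 0.0276) and 4.32 ± 0.77 at 10 h (adjusted p = 0.00439). Sult1c3 was called at 10 h (4.81 ± 0.88, adjusted p = 0.00585) and 16 h (4.37 ± 0.94, adjusted p = 0.00803). It stood at 2.83 ± 0.94 at 3 h and 3.76 ± 0.94 at 6 h (adjusted p = 0.140 at 6 h), with -3.70, 1.49 and -4.05 on the vehicle arrays. The first time of a call therefore does not date the onset of these changes. Genes not called in the diet comparison also moved here. Cyp26b1 rose by 5.35 ± 0.79 at 6 h (adjusted p = 0.000613) and Dhrs3 by 1.59 ± 0.25 at 3 h (adjusted p = 0.00240). Cyp3a9, among the steadiest diet responses, was at 1.09 ± 0.42 at 6 h and 0.99 ± 0.42 at 16 h (adjusted p = 0.724 and 0.152).

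Lipogenic genes were mostly not called after the acute dose. Scd stood at 1.39 ± 0.43 at 3 h (adjusted p = 0.892) and -0.20 ± 0.43 at 16 h, and Fasn at 0.51 ± 0.48 and 0.26 ± 0.48 at those times. Angptl8 was the exception and rose by 2.06 ± 0.29 at 3 h (adjusted p = 0.00219). Outside lipogenesis, Ppp1r3b rose at 3 h by 1.85 ± 0.31 (adjusted p = 0.00420) and Avpr1a by 1.47 ± 0.28 (adjusted p = 0.0262). Among the falls, Cyp8b1 read 6.24, 4.67 and 7.26 on vehicle and 0.62, 0.94, 0.83 and 0.58 at 10 h, far below every vehicle array. It fell by 5.31 ± 0.36 at 10 h (adjusted p = 9.27e-11) and by 1.67 ± 0.38 at 16 h (adjusted p = 0.0114). Cyp17a1 was at 0.50 ± 0.36 at 3 h and fell by 2.47 ± 0.36 at 16 h (adjusted p = 0.000389), and Fabp7 fell by 1.58 ± 0.30 at 10 h (adjusted p = 0.00767).

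The vehicle arrays were uneven for these genes. Vehicle replicate 2 read 7.11 for Cyp2c22 against 2.54 and 2.83 on the others, and 2.62 for Lrat against -0.39 and -4.18. Counting rises and falls together, 6, 9, 12 and 13 of the 76 genes were called the same way at 3, 6, 10 and 16 h. Without vehicle replicate 2 the first 3 of these counts were 12, 19 and 22. Without vehicle replicate 1 they were 2 at 3 h and 4 at 6 h, and without vehicle replicate 3 they were 4, 5 and 4 at 6, 10 and 16 h. Omitting replicate 1 of the 3 h group gave 3 at that time, and omitting replicate 1 or 3 of the 6 h group gave 4 and 3.

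**Figure D5:**
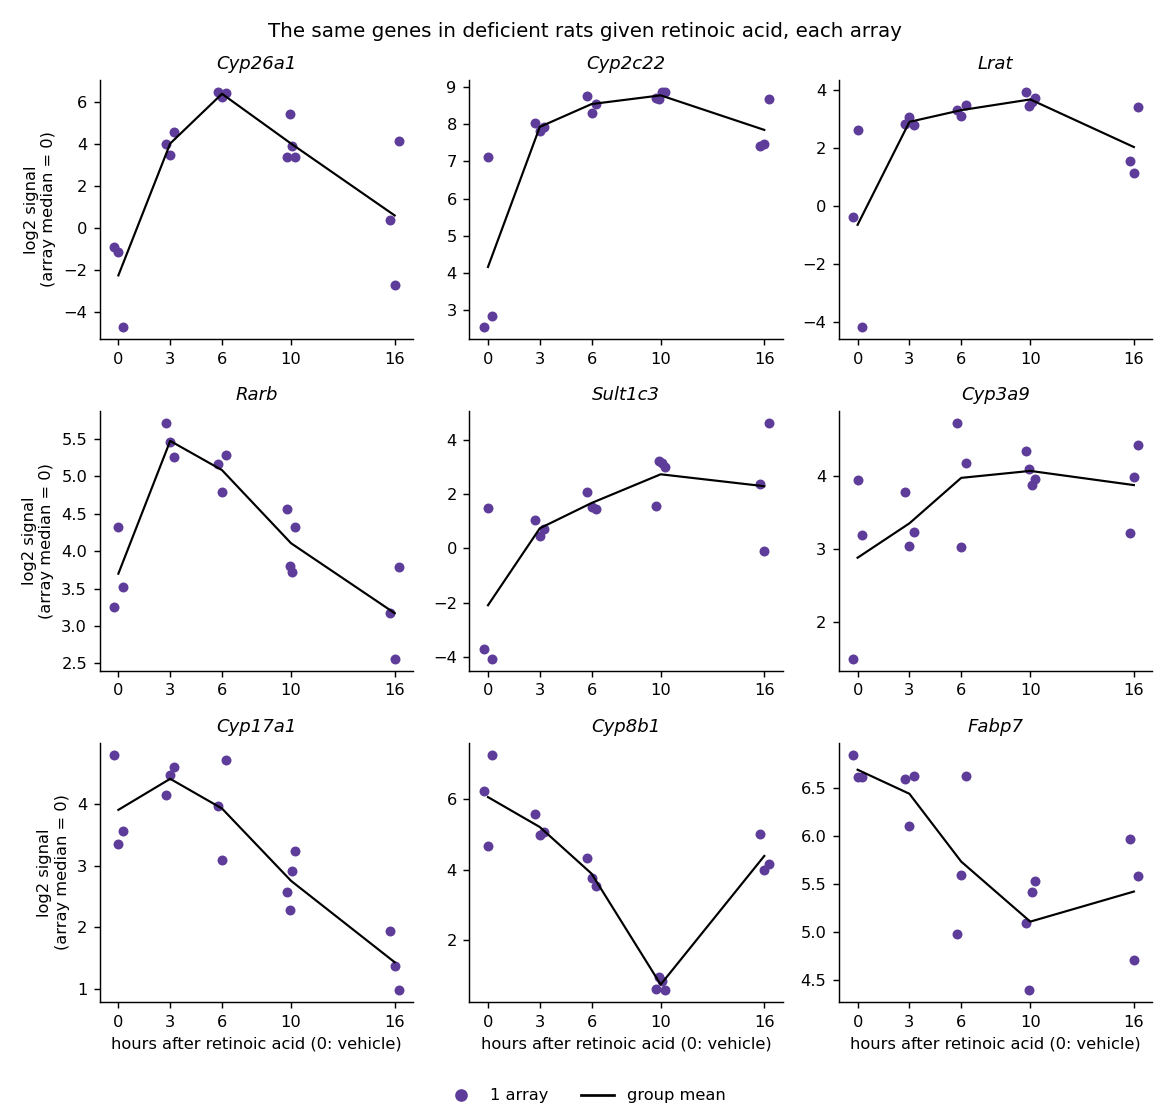
Log2 signal (vertical axis, array median at 0) of 9 genes called in the diet comparison, in deficient rats at 0 (vehicle), 3, 6, 10 and 16 h after retinoic acid (horizontal axis). Points are arrays and lines join group means. Cyp26a1 peaks at 6 h (6.27 to 6.52), Cyp8b1 is lowest at 10 h (0.58 to 0.94), and Cyp17a1 is lowest at 16 h.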

How the data were processed

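Arrays were Affymetrix single-colour arrays. The deposited values are log2 signals, which the authors made with GCOS software (version not given in the sources used here), per the submitters' processing notes; from the values, each array is centred on its median and has a floor. No further scaling was applied. Probe sets named by the platform annotation numbered 20832 with 1 gene, 436 with several and 9831 unnamed. A probe set entered the test if its signal passed the 40th percentile on 2 or more diet arrays; 57 controls were left out. limma 3.58.1 (R 4.3.3) fitted group means of the 20 diet arrays with run as a covariate (eBayes with trend, 15 residual degrees of freedom), and separately the 16 arrays of the retinoic acid course; calls are adjusted p under 0.05 (Benjamini-Hochberg). The code was tested on simulated data. A gene is its brightest probe set. Members, gene lists and rules were chosen with earlier results of these data known, so counts in lists are descriptions. All array values were given for the 15 largest rises, the 11 falls and a panel of 9 vitamin A-responsive genes, and changes for other called genes and for up to 4 uncalled members of each list. Replicates are separate rats, whose number limits precision.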

Additional observations from a re-analysis of the deposited data

Results flagged for a closer look

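In groups of 4 to 10 arrays, 1 array lay far from the others in 4 of 90 groups examined over the genes shown array by array, and chance alone flags about 1 in 20 groups. Sult1c3 was -3.82 on deficient replicate 5, against -0.33 on the nearest deficient array. Cyp8b1 was 7.32 on deficient replicate 3, against 6.75 on the nearest. Cyp26a1 was 1.26 on adequate replicate 1, with 0.41 on the next, and Mest was 4.27 on adequate replicate 2, with 1.93 on the next. Both adequate arrays lay in the second run. Their values therefore enter the supplemented minus deficient change through the run term, and also the shared spread and the adequate contrasts.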

How the results depend on the processing

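Under the alternatives run, none of the 76 called genes changed direction. Calls of 3 genes, Cyp2c22, Cyp3a9 and Cyp17a1, held under every alternative. Counts of called probe sets, 116 with all arrays, were 20 without a variance trend, 187 with array weights, 57 in the first run only, 36 from the 7 supplemented and deficient arrays only and 58 without the arrays that stood apart, and ranged from 43 to 430 when 1 array was left out. The other counts lay between 90 and 170 (quantile normalization, no filter, a minimum fold of 1.5, no run term, run as a random block, an offset of 1 array median). Quantile normalization moved the median change of all probe sets from 0.16 to 0.05. With the replicate number as a block beside run, 15 probe sets were called (14 higher, 1 lower) and 8 of the 76 genes kept their call. Deviations of same-numbered supplemented and deficient arrays from their group means correlated at only 0.03 and -0.01. The deviations of the 2 supplemented arrays mirror each other, and the same-numbered deficient arrays lay in the other run. These values therefore cannot settle whether the numbers pair the rats. In the retinoic acid course, the 6, 9, 12 and 13 genes called the same way were 0, 0, 1 and 0 without a variance trend. Quantile normalization gave 20 at 6 h and 32 at 10 h. Leaving out 1 array gave 2 to 12 at 3 h, 3 to 19 at 6 h, 5 to 22 at 10 h and 4 to 12 at 16 h, an alternative chosen after seeing the data. Of 780 list values under the alternatives, 68 moved. Medians of lists near 0 changed sign with the scaling; under quantile normalization those of steroid, glutathione transferase, amino acid, growth hormone, fatty acid-binding and Kupffer cell genes did. Of 21 called genes with several probe sets, 11 lost their call when these were averaged. Causes were not tested. With 2 supplemented rats in 1 run, rat-to-rat spread on that diet is hardly measured, and weak probe sets are limited by the floor.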
